A study of Mus musculus with 2 samples.

Results

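The genes that make, import and use creatine were examined in newborn mouse lens with and without the forkhead transcription factor Foxp1. The group was chosen by name and held 7 genes of the 20655 genes with a named probe. They are the mitochondrial creatine kinases Ckmt1 and Ckmt2, the cytosolic creatine kinases Ckb and Ckm, the synthesis enzymes Gatm and Gamt, and the creatine importer Slc6a8. The group was set up around Ckmt1 because its signal was low on the knockout array, so the Ckmt1 difference is a description here and supports nothing by itself. Probes were matched to genes through the RefSeq transcripts they were designed to, which gave 9 probes.

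Total lens RNA was hybridised to single-colour Agilent arrays, 1 for control lens and 1 for knockout lens, at postnatal day 0 on a mixed C57BL/6 background. The control sample is labelled wild-type and was a litter mate, and the other is labelled Foxp1 KO and described as lens specific. The treatment text of both samples reads Foxp1-flox/flox; Pax6-L-Cre, so the labels do not settle which of these alleles the control carried, and they do not say in which cells this Cre is active or whether animals were pooled. With 1 array per genotype there was no replicate check and no test, and each difference below is a difference between these 2 arrays.

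Creatine kinases move a phosphate group between ATP and creatine. The mitochondrial enzymes sit between the inner and outer membrane and load creatine with phosphate from newly made ATP, and the cytosolic enzymes spend that phosphocreatine to restore ATP where it is used. Gatm makes guanidinoacetate from arginine and glycine, Gamt methylates it to creatine, and Slc6a8 carries creatine into cells. The lens has no blood vessels of its own, and its inner fibre cells lose their mitochondria as they mature.

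Of the 7 genes, 1, Ckmt1, had a knockout reading at least 2-fold lower, and 0 were at least 2-fold higher. Over all 14254 genes measured on both arrays, 5.86% were at least 2-fold lower and 1.02% at least 2-fold higher. In the brighter 7127 of them, those from the median signal up, the shares were 0.393% and 0.842%. The other 4 measured genes of the group lay between the 2-fold limits, Ckmt2 below 0 and Ckb, Gamt and Slc6a8 above 0. The remaining 2 genes, Ckm and Gatm, were not well above background on either array. All values are processed signals, the spot brightness after background subtraction. Differences are log2 knockout minus control after the 75th percentile of each array was subtracted. The error given with a difference is the SD expected from spot noise, estimated from 281 probes printed at least 5 times, and it does not cover animals, dissections or labelling.

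The sequence just upstream of Ckmt1 is shown because the deleted gene encodes a DNA-binding factor and Ckmt1 was the member with the large difference, and that of Ckb is shown as the creatine kinase on the other side of 0. RefSeq (GRCm38.p6) lists 2 start sites for Ckmt1, and 6 of the 7 genes had an entry. Each line gives the 250 bases before a start site, 5′ to 3′ on the gene's strand, with capitals marking the forkhead core TGTTTA or its reverse complement TAAACA. The windows are chr2:121357526-121357775 and chr2:121358360-121358609 on the plus strand for Ckmt1, and chr12:111672339-111672588 on the minus strand for Ckb. The window before the second Ckmt1 start lies inside the span of the transcript from the first.
Ckmt1, first start: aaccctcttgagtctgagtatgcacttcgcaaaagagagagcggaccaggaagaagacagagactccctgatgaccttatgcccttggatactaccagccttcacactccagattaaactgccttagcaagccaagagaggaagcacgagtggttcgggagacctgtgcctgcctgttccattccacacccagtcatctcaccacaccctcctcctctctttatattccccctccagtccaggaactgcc
Ckmt1, second start: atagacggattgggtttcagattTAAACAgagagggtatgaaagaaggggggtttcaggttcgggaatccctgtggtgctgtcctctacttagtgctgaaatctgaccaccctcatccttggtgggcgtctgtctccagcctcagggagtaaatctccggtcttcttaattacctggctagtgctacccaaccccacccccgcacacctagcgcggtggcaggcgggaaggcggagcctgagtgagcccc
Ckb: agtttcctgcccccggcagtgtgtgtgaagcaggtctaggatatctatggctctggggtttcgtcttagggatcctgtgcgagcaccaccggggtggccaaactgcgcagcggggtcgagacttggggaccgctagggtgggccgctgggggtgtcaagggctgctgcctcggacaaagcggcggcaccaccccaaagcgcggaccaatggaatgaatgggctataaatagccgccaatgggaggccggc
The core was found once, as TAAACA, in the window of the second Ckmt1 start, where it begins at position -227 from that start. It was in 12.03% of all 32851 windows of this length, both strands searched. The longer form TGTTTAC, which contains the core, was in 3.17% of windows and in 0 of the Ckmt1 and Ckb windows. The windows of Gatm, Ckm, Gamt and Ckmt2 held 0 matches to either. A match describes letters only, and binding was not measured.

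Ckmt1, the ubiquitous mitochondrial creatine kinase, was read by 1 probe designed to NM_009897. The control array read 9620 ± 962 and the knockout array 3435 ± 344 (software error of 1 spot each). The knockout reading was the lower, with a log2 difference of -1.47 ± 0.08 (spot SD), or 2.77-fold. Its signal lay in the brightest 10% of measured genes, where the median difference was 0.06 with an SD of 0.23 over 1425 genes. Of those 1425 genes, 3 were as low as Ckmt1 or lower, itself included. Of the brighter 7127 genes, 11 had a difference that low or lower. A probe for added spike-in RNA of like brightness, at 9763 and 9532, differed by -0.02, and the 5 spike-ins above a signal of 1000 lay between -0.02 and 0.01. Scaling by the array medians in place of the 75th percentile raised all genes by 1.08, placed Ckmt1 at -0.39 and so ended its call; it placed the median of the same 5 spike-ins at 1.06.

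**Figure D1:**
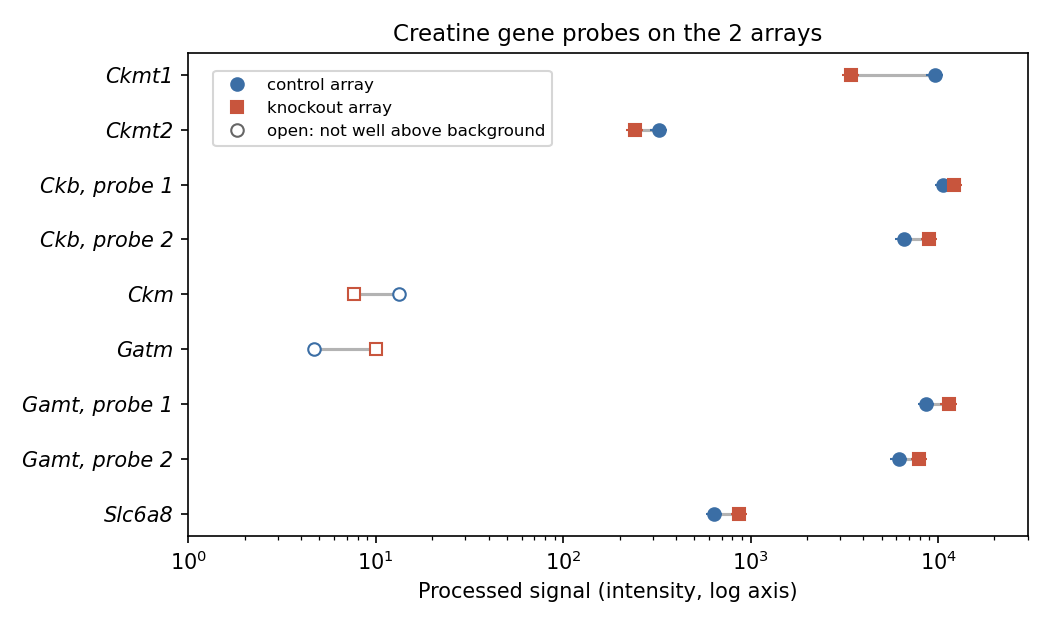
Processed signal (x axis, intensity, log scale) of the 9 probes of the creatine genes on the control (circles) and knockout (squares) arrays. Bars are the extraction software's error, and open symbols, drawn without bars, were not well above background. Ckmt1 read 9620 and 3435, whereas both probes of Ckb and Gamt and the probe of Slc6a8 lay further right on the knockout array.

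Ckmt2, the mitochondrial isoform of striated muscle, was read by 1 probe designed to NM_198415. The control array gave 325 ± 33.0 and the knockout array 242 ± 24.5 (software error). The log2 difference was -0.41 ± 0.12 (spot SD), a 1.33-fold lower reading that did not reach the 2-fold limit. Of 1425 genes in its signal class of 10% of measured genes, 148 were as low or lower, and the 5th to 95th percentile of that class ran from -0.59 to 0.57, so Ckmt2 lay inside it. A spike-in at 284 and 261 differed by -0.11. Ckmt2 shared the sign of Ckmt1 except under scaling by array medians, where it read 0.66.

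Ckb, the brain-type cytosolic creatine kinase, was read by 2 probes designed to NM_021273. The brighter gave 10677 ± 1068 for control and 12170 ± 1217 for knockout, and the other gave 6561 ± 656 and 8972 ± 897 (software errors). Both probes read higher on the knockout array, with log2 differences of 0.20 and 0.47. They differed from each other by 0.26, against a spot SD of 0.08 for each. The mean was 0.33 ± 0.06 (spot SD), or 1.26-fold. Of the 1425 genes in the brightest 10%, 106 were as high or higher. Ckm, the muscle-type cytosolic enzyme, gave 13.3 and 7.67 with its 1 probe, designed to NM_007710. Neither reading was well above background, so no difference is given.

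Gatm, the first enzyme of creatine synthesis, gave 4.72 for control and 10.004 for knockout with its probe for NM_025961, neither well above background. Gamt, the second enzyme, was bright on both arrays. One of its 2 probes, both designed to NM_010255, gave 8676 ± 868 and 11444 ± 1144, and the other 6171 ± 617 and 7935 ± 793 (software errors, control first). The 2 probes had log2 differences of 0.41 and 0.38, which lie 0.04 apart, within spot noise. Their mean was 0.39 ± 0.06 (spot SD), or 1.31-fold, and 68 of 1425 genes in the brightest 10% were as high or higher. Slc6a8, the importer, gave 642 ± 64.3 for control and 869.7 ± 87.0 for knockout with 1 probe for NM_133987. Its difference was 0.45 ± 0.12 (spot SD), or 1.37-fold, and 101 of 1425 genes in its class were as high or higher. Gamt lay just above the 95th percentile of its class (0.39), Ckb below it, and Slc6a8 below the 95th percentile of its own (0.54).

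**Figure D2:**
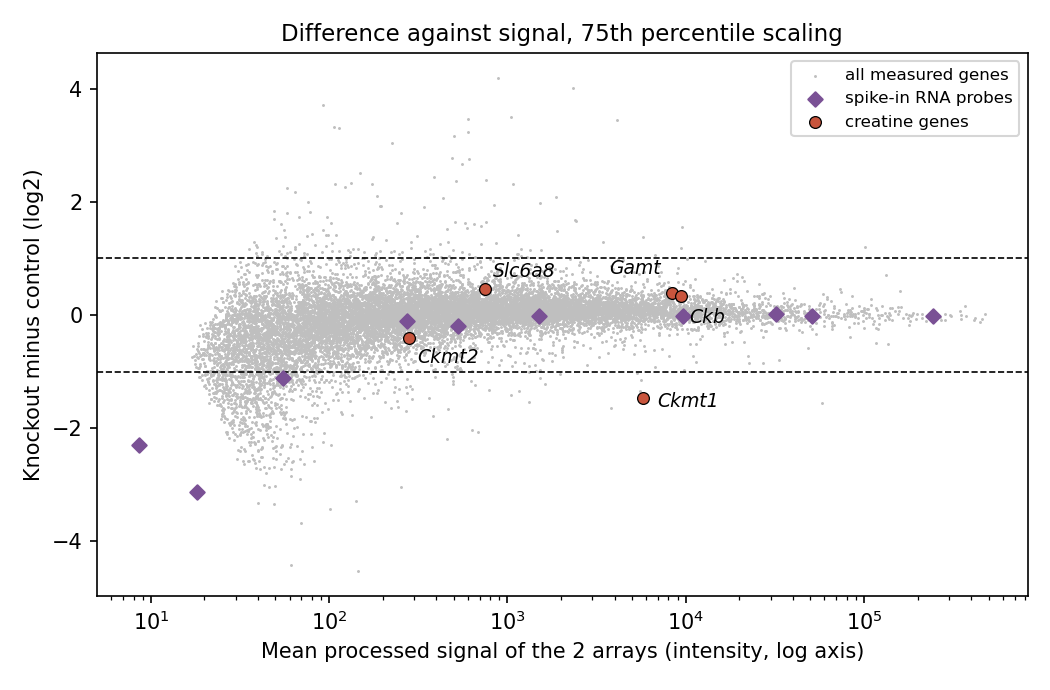
Log2 difference, knockout minus control (y axis), against the mean processed signal of the 2 arrays (x axis, log scale) for 14254 measured genes (grey), the 5 measured creatine genes (red circles) and 10 spike-in probes (diamonds). Dashed lines mark 2-fold. Ckmt1, at -1.47, lies outside the band of bright genes, and dim genes and the 3 dimmest spike-ins lie low.

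None of the other 4 measured genes was 2-fold lower with Ckmt1, which was itself picked for its low value, so the gaps below are descriptions. The gap between Ckmt1 and another gene does not depend on how the arrays are scaled by a constant. Ckmt1 lay 1.06 ± 0.14 (spot SD, log2) further down than Ckmt2, so the ratio of the 2 mitochondrial kinases changed 2.08-fold between arrays. The ratio of Ckmt1 to Ckb changed 3.50-fold, with Ckmt1 lower by 1.81 ± 0.10. Against Gamt and Slc6a8 the ratio changed 3.65-fold and 3.80-fold. Each gap holds the value for which Ckmt1 was picked, and its spot SD belongs to a comparison of 2 arrays and not of animals. The median of the 5 measured genes was 0.33, against 0.01 over all measured genes and 0.08 over the brighter 7127.

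Ckmt1 overlaps the gene Strc and a long noncoding RNA gene in the GRCm38.p6 annotation, and Ckm and Slc6a8 each overlap a long noncoding RNA gene, so that these readings may not be separate from those of their neighbours. The Strc probe gave 23.8 and 6.72, neither well above background. The coding genes on the other side, Ppip5k1 and Map1a, had differences of 0.05 and 0.41, and Catsper2, beyond Strc, had -0.05. The genes around Ckmt1 therefore showed no 2-fold difference where they were measured. The 5 genes whose difference was nearest to that of Ckmt1, among genes of the brightest 10% and over these 2 arrays, were the bitter taste receptor Tas2r109 at -1.48, the alpha tubulin Tuba1a at -1.55, the connexin Gjb1 at -1.35, R3hdml at -1.15 and Impg1, an interphotoreceptor matrix proteoglycan gene, at -1.02. Tuba1a has near-identical paralogs, so its reading is uncertain.

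Foxp1 itself, the targeted gene, had a mean difference of -1.66 over 3 probes, lower on the array labelled knockout. The 3 probes had differences of -1.82 ± 0.12, -1.84 ± 0.12 and -1.33 ± 0.29 (spot SD), the last at dim signals of 97.5 and 38.4. Whether these probes lie in the deleted part is not given in the sources used here.

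Genes that carry creatine or resemble its importer were described next. Slc16a12, which is known as a creatine transporter of the lens, gave 780.2 and 608, a difference of -0.35 ± 0.12 (spot SD). It was among 58 genes of 1425 in its class as low or lower. The taurine transporter Slc6a6 had 0.60, from 1113 to 1671. The GABA transporter family members Slc6a13 and Slc6a11 had -0.67 and -0.37, at control signals of 181 and a dim 68.4. The signal class of Slc6a11 had a median difference of -0.36. Of this list of 6, 5 were measured, 0 reached 2-fold and 3 were below 0; the median was -0.35, which turned to 0.30 under quantile normalization and to 0.13 over the brighter probes.

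Supply of arginine, glycine and methyl groups held 1 gene beyond 2-fold among those measured on both arrays. Of 14 arginine and glycine genes 12 were measured, 1 was at least 2-fold higher, 0 lower, 8 lay above 0 and 4 below, with a median of 0.13. Slc7a3, a cationic amino acid transporter, read 3.59-fold higher, from a dim 25.9 to 92.2. In its signal class 1.75% of all genes were at least 2-fold higher. Ass1, which makes the precursor of arginine, had a difference of 0.61 at 17231 and 26067, the transporter Slc7a2 had -0.66, and the glycine transporter Slc6a9 had -0.33. The arginases Arg1 and Arg2 were above background on the control array alone, at 32.8 and 42.4, and so were at least 2.68-fold and 3.46-fold lower on the other. That bound sets the control reading against the dimmest knockout spot still flagged as well above background (12.1). Both lie in the dim range, where a spike-in read 54.1 and 6.10. Of 11 methyl supply genes 10 were measured and 0 reached 2-fold, with 5 on each side of 0; the median was 0.04. Gnmt, which methylates glycine, had -0.64, Ahcyl1 -0.37, the methionine synthase reductase Mtrr 0.33 and Ahcy, which breaks down the by-product of methylation, -0.31.

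Transcripts of the proteins that work beside mitochondrial creatine kinase lay within 0.24 of 0 on the log2 scale. Of 7 such genes, the channels of the outer membrane and the nucleotide and phosphate carriers of the inner membrane, 6 were measured, 0 passed 2-fold, and the median was 0.08. They ran from Vdac2 at -0.11 to Vdac3 at 0.24, with the ADP/ATP carrier Slc25a5 at 0.22 and Vdac1 at 0.11. No partner came near the -1.47 of Ckmt1. Of 17 genes for respiratory chain, matrix and import proteins of mitochondria, all 17 were measured, 0 reached 2-fold and 10 were above 0; the median was 0.07. The import receptor Tomm20 was lowest at -0.58, and citrate synthase, Cs, cytochrome c, Cycs, and Ndufa9 had 0.30, 0.29 and 0.22. Of 10 regulators of mitochondrial biogenesis 9 were measured and 0 reached 2-fold; 5 were above 0, and the median was 0.16. The orphan receptor Esrrg had 0.86 at dim signals of 53.1 and 95.2, Nrf1 0.34, Esrrb 0.21 and Gabpa 0.21.

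Other enzymes of phosphate transfer and energy sensing that were measured on both arrays lay inside 2-fold. Of 16 adenylate and nucleoside diphosphate kinases, which exchange phosphate between nucleotides, 13 were measured, 0 reached 2-fold and 6 were above 0; the median was -0.02. Nme5 had -0.65 at a dim signal, Nme3 -0.27, Nme1 0.24 and Nme7 0.19. Ak5 was above background on the control array alone, at 93.1, and by the same bound at least 7.61-fold lower, a dim reading too. Ak1, the main cytosolic adenylate kinase, had 0.08 at 7190.4 and 7504. Of 10 genes of AMPK, the kinase that senses low energy, and its activators, 9 were measured, 0 reached 2-fold and 8 were above 0; the median was 0.17. Its subunit gene Prkab2 had 0.76, from 4508 to 7543, and Strada, Prkaa2 and Prkaa1 had 0.29, 0.27 and 0.21. The medians of the methyl supply, kinase partner, nucleotide kinase and mitochondrial protein lists have no settled sign, since each changed it under at least 1 setting other than array medians.

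**Figure D3:**
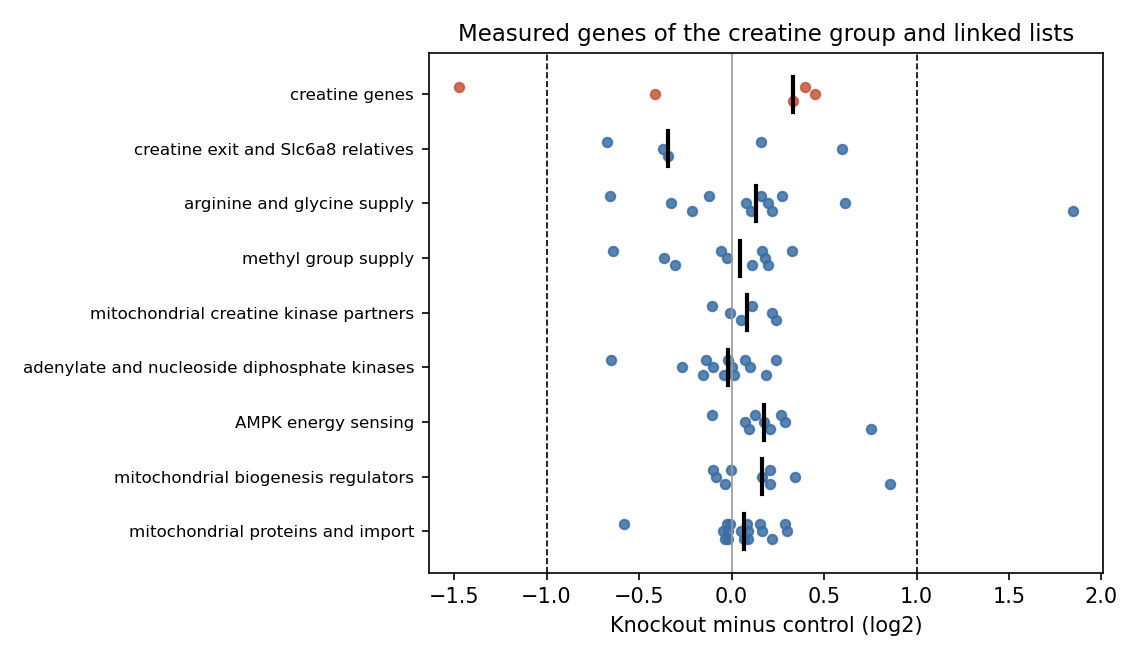
Log2 difference, knockout minus control (x axis), of each measured gene (points) in the creatine group and 8 linked lists (rows), with a black bar at each list's median. Dashed lines mark 2-fold, passed by Ckmt1 at -1.47 and Slc7a3 at 1.84 and by no other gene drawn.

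The labelled tissue was checked against lens markers. All 13 of 13 were above background on both arrays, with a summed signal of 4397570 and 4288080, a median difference of -0.04 and 0 beyond 2-fold. Lgsn had -0.67, Grifin and Mip -0.25 each and Crybb3 -0.13. Both arrays also held signal for markers of other cell types, set out here because creatine kinases are abundant in muscle and neurons. Counts of markers above background do not by themselves show such cells, since 67.5% (control) and 56.9% (knockout) of all gene spots passed that flag. The olfactory receptor gene Olfr905 passed it as well, at 22.4 and 15.3, beside the muscle gene Myh3 at 24.8 and 15.5. Less RNA per cell and fewer cells of a type cannot be told apart in whole-lens RNA. Skeletal muscle markers, which bear on Ckm and Ckmt2, were above background for 14 of 15 genes in control and 13 in knockout lens, at summed signals of 1469 and 1050.3; of 12 measured, 3 lay above 0 and 9 below. The 3 at least 2-fold lower, Neb at -2.06, Ttn at -1.38 and Tnnt3 at -1.22, were in the dimmest 10% of measured genes, where 30.2% of all genes were 2-fold lower. Tnni2 had -0.93, Acta1 -0.91 at 118 and 62.2, Myh3 -0.67, Mybpc2 -0.33 and Atp2a1 -0.22. The median of all genes was -0.61 in the signal class of Myh3 and -0.36 in that of Tnni2 and Mybpc2. It was -0.16 in the class of Acta1 and Atp2a1. Myh8, Mylpf and Tnnc2 had 0.22, 0.21 and 0.16, and Actn3 had -0.03 at 409 and 396. The filament gene Des was above background on the control array alone, at 61.4, in the range of the spike-in that read 54.1 and 6.10, and the muscle regulator Myog was not above background on either array. Neuron and retina markers were above background for 14 of 14 on both arrays, at summed signals of 12258 and 16643. Of these, 13 lay above 0, 1 was at least 2-fold higher, and the median was 0.45, with Pou4f2 at 1.34, Isl1 at 0.995, Nefl at 0.95 and Stmn2 at 0.89. In the signal class of Pou4f2, 1.40% of all genes were at least 2-fold higher.

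Pigment epithelium markers were above background for 5 of 6 on both arrays, with summed signals of 2727 and 1977 and a median of -0.40. All 5 lay below 0, among them Tyrp1 at -0.84, Mlana at -0.45, Pmel at -0.40 and Dct at -0.37, and Rpe65 was not above background on either array. Mesenchyme markers were above background for 5 of 7 genes in control and 6 in knockout lens, at summed signals of 1085 and 1339. Of 4 measured, Col1a1 was at least 2-fold higher at 1.05, Col1a2 had 0.50, Pdgfrb 0.02 and Pdgfra -0.02. Col1a1 was dim, at 31.2 and 63.8, in a signal class where 1.75% of all genes were 2-fold higher. Dcn and Lum were above background on the knockout array alone, at 158 and 48.9. Lum was at least 2.39-fold higher, set against the dimmest control spot flagged as well above background (20.6). The Dcn control reading, 22.2, exceeded that limit but was not flagged. Its 7.18-fold therefore compares the 2 readings and is not a bound. Twist1 was above background on the control array alone, at a dim 25.1, and at least 2.05-fold lower. A spike-in brighter than Twist1 on the control array read 54.1 and 6.10. Vessel and macrophage markers, 6 of 7 with a named probe and all 6 above background on both arrays, summed to 3776 and 3547, with 1 above 0, 5 below and a median of -0.27. Ptprc had -1.06 and Pecam1 -0.63, both dim, at 40.3 and 93.0 on the control array, Adgre1 had -0.40, Csf1r -0.14 and Cdh5 -0.09, and Kdr had 0.07 at 973 and 1013. The part of these cell types in the differences of the creatine genes was not tested.

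**Figure D4:**
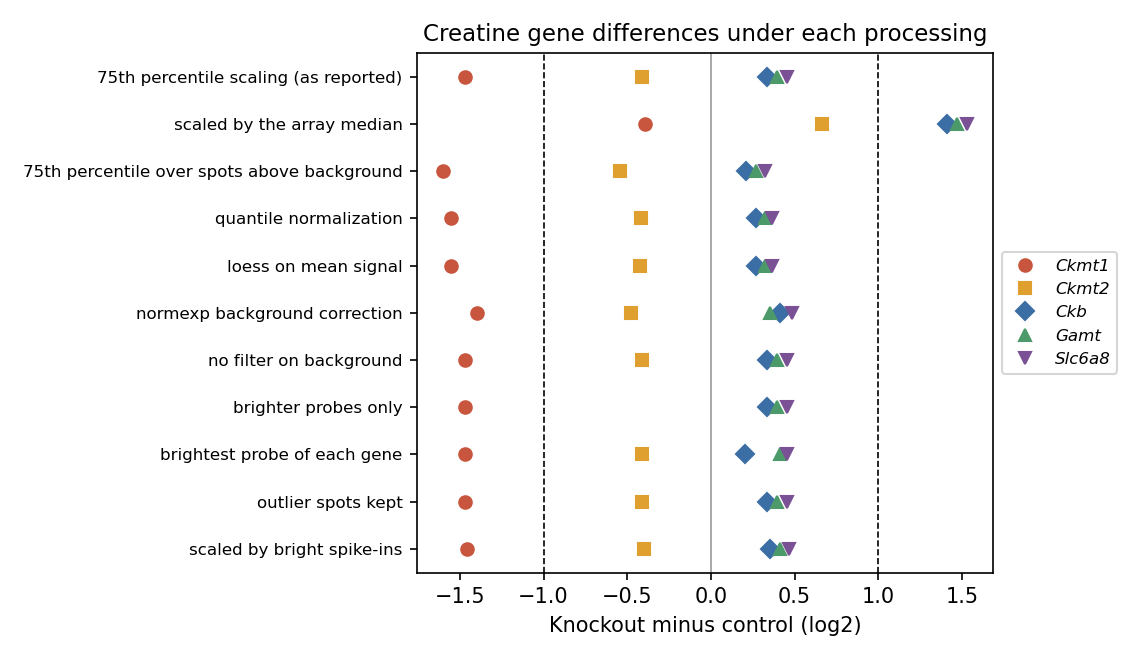
Log2 difference, knockout minus control (x axis), of the 5 measured creatine genes (symbols) under the reported processing and 10 alternatives (rows). Dashed lines mark 2-fold. Ckmt1 stays between -1.60 and -1.40 except under array medians, where it reads -0.39 and Ckb, Gamt and Slc6a8 pass 2-fold.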

How the data were processed

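Each array file holds spot intensities that the authors deposited as scanner output, extracted with Agilent Feature Extraction 10.7.3.1 from a layout annotated to mm9, per the file headers; no scaling between arrays is recorded. Flags for outliers and for signal well above background (yes or no) come from the same deposited files. The arrays carried 59305 gene spots each, of which 67.5% (control) and 56.9% (knockout) were well above background, and 0 were saturated. Control spots and 263 spots with an outlier flag were left out. The log2 processed signal minus the array's 75th percentile was averaged over spots, then over measured probes, those with more than 50% of spots above background on both arrays. RefSeq transcripts in the GRCm38.p6 table named 27225 of 55655 probes. A gene was called at 2-fold.

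The members, lists and settings were chosen with earlier results of these data known. Named are all members and their probes, Foxp1, up to 4 genes per list with the largest differences and the 5 genes nearest to Ckmt1; neighbouring genes, Ak1 and some muscle and vessel markers were added after their values were seen, and some genes so taken are not reported here. The quantile, loess and normexp alternatives were run with limma 3.58.1. The normexp setting used the median spot signal, since the planned mean signal is not a column used here. Steps were checked on simulated data. The number of arrays limits the precision.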

Additional observations from a re-analysis of the deposited data

How the results depend on the processing

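Each result was recomputed under 9 alternatives planned ahead and 1, scaling by bright spike-ins, chosen after seeing the data. Ckmt1 was below 0 under all 10 and at least 2-fold lower under 9 of them. With no filter, brighter probes only, the brightest probe of each gene or outlier spots kept, Ckmt1 read the same -1.47. Those settings could not move it, since it has 1 bright probe with 1 spot, so they say nothing on how stable its value is. It read -0.39 with array medians, which left 0 creatine genes at least 2-fold lower and 3 at least 2-fold higher beside 61.2% of all genes higher, and -1.60 with the 75th percentile over spots above background. Without a filter on background 1 creatine gene was at least 2-fold higher, Gatm, whose readings were not above background. Relative to the median of all genes Ckmt1 lay between -1.61 and -1.31. Leaving out array medians, Ckmt2 ran from -0.54 to -0.40, Ckb from 0.20 to 0.41, Gamt from 0.27 to 0.41 and Slc6a8 from 0.33 to 0.49. Ckmt2 has no value over the brighter probes. The share of all genes at least 2-fold lower was 5.86%, 0.709% with array medians, 1.63% with quantile normalization, 2.67% with loess, 0.695% with normexp and 21.6% with no filter. The share at least 2-fold higher was 1.02%, and 61.2%, 5.44%, 1.82%, 0.505% and 1.42% under the same settings in turn. No paired analysis was possible because each group has 1 array. Dim signals limit Ckm and Gatm, for which no difference can be given: the lowest spots called well above background read 20.6 for control and 12.1 for knockout.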

Other observations

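Coding genes next to the other creatine genes on the chromosome were read as well. Next to Ckb, Mark3 and Bag5 had log2 differences of 0.33 and 0.26, Trmt61a had 0.12 and the translation factor gene Eif5 had 0.04. Next to Gamt, the respiratory chain gene Ndufs7 had 0.21 at 22675 and 25954, Pwwp3a had 0.34, Dazap1 had 0.12 and the ribosomal protein gene Rps15 had -0.12. Next to Slc6a8, Bcap31 had 0.30 at 4815 and 5863 and Pnck had -0.13, whereas Dusp9, a phosphatase of the ERK pathway, had -1.01 at dim signals of 66.3 and 32.6. Next to Ckmt2, Zcchc9 had 0.05, Rasgrf2 -0.22 and Msh3 -0.62. Next to Ckm, Ercc2 had -0.19, Klc3 -0.53 and Mark4 -0.45, and next to Gatm, Spata5l1 and AA467197 had -0.33 and -0.32. A spike-in RNA in the range of Dusp9, at 81.4 and 37.2, had -1.12. These genes were chosen by position after the values were seen, and their differences have no replicate check.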
